A study of Homo sapiens with 2 samples.

Results

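The 43 genes described here encode the chaperones and folding enzymes of the endoplasmic reticulum (ER), the machinery of ER-associated degradation (ERAD), and the sensors of the unfolded protein response (UPR). They were compiled by function and chosen by, among other things, their measured miR-130b minus empty-vector differences on these same arrays, so each of those differences is a description and none of them is tested. Of the 43 genes, 41 had a probe set that carries their symbol alone, out of 18417 named genes, and 40 of these passed a filter on low values that 9209 genes passed. The other 2 of the 43, PDIA3 and TXNDC5, had probe sets shared with other genes and are given apart. The series consists of 2 arrays of RNA precipitated with an antibody to Ago2, the protein that carries microRNAs and the mRNAs they pair with. Both RNAs came from the human lung adenocarcinoma line A549, an established line. The cells of 1 sample overexpressed miR-130b and those of the other were transfected with an empty vector, with 1 array for each. The labels give no time, dose, vector backbone or clone for either group. They describe extraction with a kit for small RNA from excised tissue rather than from cultured cells, so how the precipitated RNA was purified is not settled.

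Proteins that enter the secretory pathway fold in the ER lumen, where the HSP70 chaperone BiP and the HSP90 chaperone GRP94 hold unfolded chains, disulphide isomerases pair their cysteines, and lectins read their sugar chains. Chains that fail to fold are passed back through the membrane by ERAD and degraded by the proteasome. When unfolded chains accumulate, the sensors IRE1 and ATF6 raise the transcription of this same machinery, IRE1 through splicing of the mRNA of the factor XBP1, and the sensor PERK slows translation. Professional secretory cells, the surfactant-producing type II cells of the lung among them, rely on this machinery.

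Each value below is a log2 expression value as deposited, and each difference is miR-130b minus empty vector on that log2 scale. With 1 array per group there was no replicate error and no p-value. As a yardstick, 356 kept genes had more than 1 probe set, and the differences of such probe sets scattered around their gene's mean with a pooled SD of 0.163, which covers disagreement between probes and leaves out cultures and precipitations. The kept genes had a median difference of 0.01, and their middle 50 percent lay between -0.20 and 0.19. MIR130B, the gene of the overexpressed microRNA, stood at 12.64 with miR-130b and at 6.66 with the empty vector, as labelled. AGO2 mRNA stood at 11.66 with miR-130b and at 11.41 with the empty vector. Of 11 epithelial genes 7 were kept, the keratins KRT8, KRT18, KRT19 and KRT7 with MUC1, CDH1 and ABCA3, whereas EPCAM and the alveolar genes SFTPB, SFTPC and NKX2-1 were below the filter on both arrays. Of the kept ones, CDH1, which encodes E-cadherin, had a difference of -1.12, and ABCA3, the lipid transporter of alveolar type II cells, one of -1.04. These 2 epithelial genes were at least 2-fold lower, whereas the other kept ones went both ways. MUC1 was at 0.415, KRT19 at 0.366 and KRT8 at 0.101, and KRT18 was at -0.029 and KRT7 at -0.291. Among markers of other cells, 2 of 9 fibroblast genes (COL1A1, ACTA2), 2 of 5 measured leukocyte genes (CD14, CD68), 1 of 5 endothelial genes (CLDN5) and 1 of 3 plasma cell genes (SDC1) were kept. PTPRC, DCN and PECAM1, which define leukocytes, fibroblasts and endothelium, were at or under 4.97 on both arrays. The kept marker CD68 was at 9.956 with miR-130b and 11.139 with the empty vector, a difference of -1.183. The other kept ones had differences of 0.634 (CD14), 0.413 (SDC1), 0.315 (COL1A1), 0.1 (CLDN5) and 0.003 (ACTA2). FAP, below the filter, was at 6.969 with miR-130b and 5.262 with the empty vector (1.707). The log2 of the summed signal of the fibroblast list was 11.26 with miR-130b and 10.99 with the empty vector, and that of the leukocyte list was 10.85 with miR-130b and 11.48 with the empty vector. Those of the epithelial list were 15.07 with miR-130b and 15.25 with the empty vector, and the part of other cells in the results was not tested.

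The overexpressed microRNA is shown here because it defines the contrast. Its hairpin gives 2 mature strands, printed from RefSeq (GRCh38.p14, chr22, plus strand) with bases 2 to 8, the seed, in capitals.
hsa-miR-130b-3p, chr22:21653354-21653375: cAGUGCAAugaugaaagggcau
hsa-miR-130b-5p, chr22:21653316-21653336: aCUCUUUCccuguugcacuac
Target-site searches need mRNA 3′ ends, which were not used here.

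The members' promoters were examined for sequence they share. Members were compiled as genes of this response and the motifs were chosen with earlier results known. The motif counts are therefore descriptions and not independent of the choice. ATF6 and XBP1 are known to act through the ER stress response element (ERSE), which is CCAAT, 9 free bases and CCACG, and through ERSE-II, which is ATTGG, 1 free base and CCACG. RefSeq windows of 300 bases, 250 before and 50 after the start, were found for 39 of the 43 members, all but DERL1, DERL3, FKBP14 and PDIA3. In 9 of the 39 a window held ERSE on either strand, and in 3 others it held ERSE-II. Among all 27305 genes with a window, 25 (0.0916%) held ERSE and 19 (0.0696%) held ERSE-II, so 12 of the 44 genes with either element were members. The matches below are given as they read on the strand that carries the motif, with its fixed letters in capitals.
HSPA5, chr9:125241391-125241409: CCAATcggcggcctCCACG
HSP90B1 (upstream match), chr12:103930216-103930234: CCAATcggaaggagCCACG
HSP90B1 (downstream match), chr12:103930321-103930339: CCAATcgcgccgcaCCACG
PDIA6, chr2:10812853-10812871: CCAATgagccgcagCCACG
CALR, chr19:12938384-12938402: CCAATgatggtcgaCCACG
CANX, chr5:179698778-179698796: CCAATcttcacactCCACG
XBP1, chr22:28800603-28800621: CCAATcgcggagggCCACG
FICD, chr12:108515123-108515141: CCAATgggagtggcCCACG
ERO1B, chr1:236282183-236282201: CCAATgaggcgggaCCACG
CRELD2, chr22:49918554-49918572: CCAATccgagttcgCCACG
HERPUD1, chr16:56932025-56932035: ATTGGgCCACG
SDF2L1, chr22:21642114-21642124: ATTGGtCCACG
HYOU1 (upstream match), chr11:119057380-119057390: ATTGGaCCACG
HYOU1 (downstream match), chr11:119057274-119057284: ATTGGaCCACG
The first 10 lines are ERSE, and no 2 of them have the same 9 bases between the fixed letters. The last 4 lines are ERSE-II, with the same free base in both matches of HYOU1. CCACG alone was in a window of 30 of the 39 members and in 42.1% of all genes with a window, and CCAAT alone in 29 members and in 39.7% of all genes. ATTGG is CCAAT read on the other strand, so both elements contain these shorter motifs. A match is a string of letters and does not show that a factor bound there in these cells.

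All 40 kept members stood lower with miR-130b than with the empty vector, except that ERO1A turned to 0.0047 under quantile normalization and to 0.016 under cyclic loess. DERL3, the 1 measured member below the filter, was lower as well. Of all kept genes, 48.4% had a difference below 0. The kept members' median difference was -0.71, and their range ran from -2.50 to -0.0048. At least 2-fold lower were 13 of 40 members (32.5%), against 1.6% of all kept genes, and none was at least 2-fold higher, against 1.32%. Among the 13, ERO1B passed the filter only through its empty-vector value. At 1.5-fold, 24 of 40 members were lower, against 5.87% of all kept genes. These shares follow from a choice made with the contrast in view, so nothing is read from them about the members as a set. The 13 members made up 8.84% of the 147 kept genes at least 2-fold lower. Measured against probe disagreement, 32 of 40 members lay at least 0.326 (2 pooled SDs) from 0, whereas 70.4% of all kept genes lay nearer to 0 than that. Input RNA was not analysed here. A lower value can therefore be less of the mRNA in the cells or a smaller share of it in the precipitate, and fewer cells of a type and less RNA per cell cannot be told apart either.

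**Figure D1:**
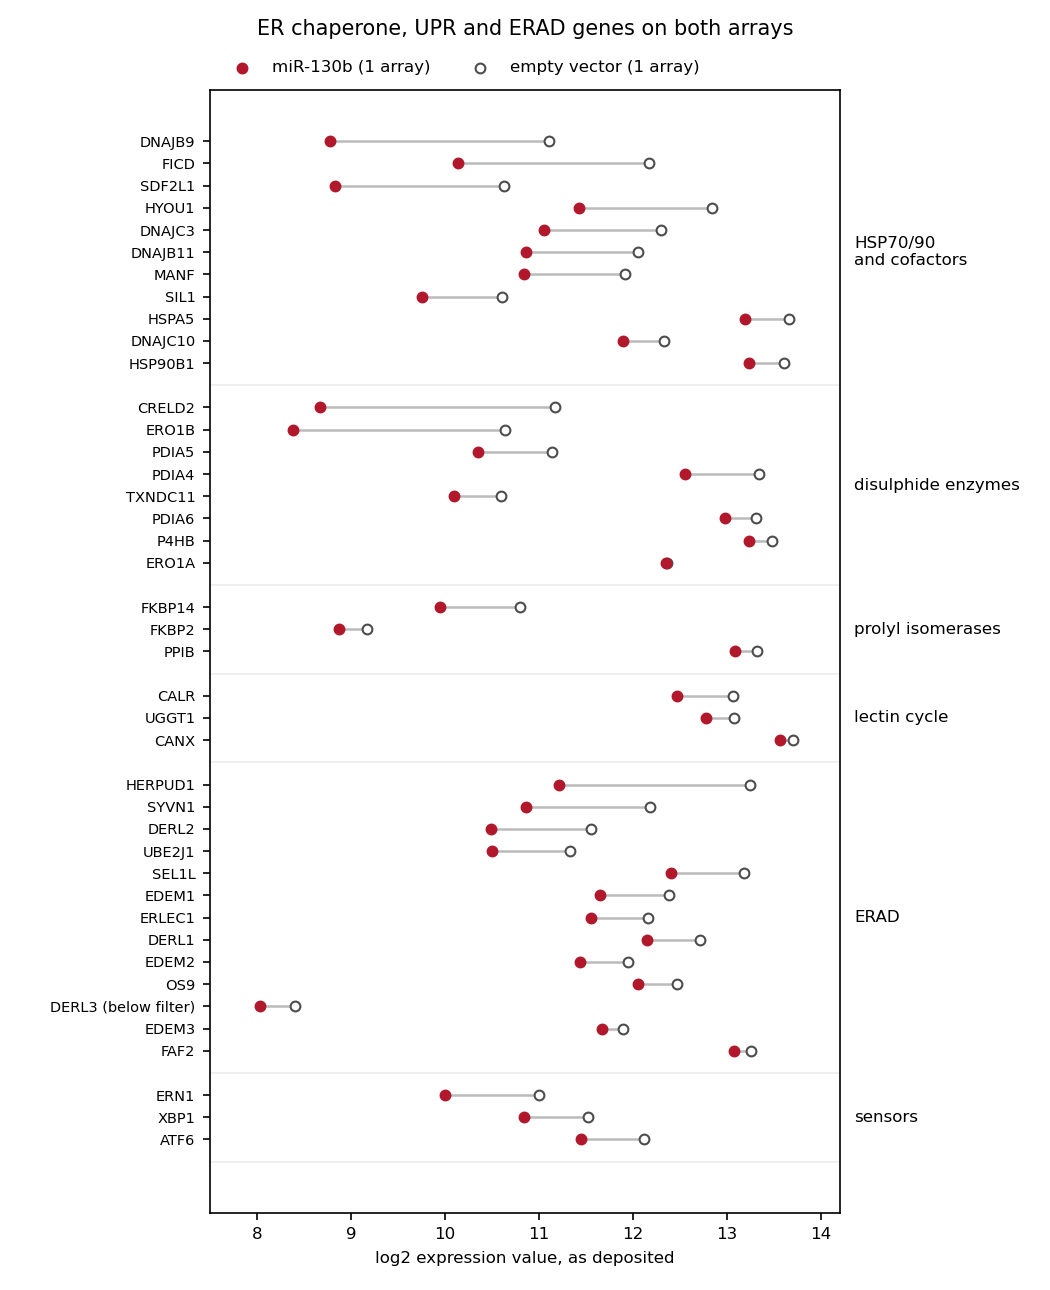
Deposited log2 values (x axis) of the 41 measured members on the miR-130b array (filled) and the empty-vector array (open), ordered by difference within each functional step. Filled points lie left of open ones, with a difference of -2.50 for CRELD2 and of -0.0048 for ERO1A, whose points coincide and whose sign turns under quantile normalization and cyclic loess.

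BiP and its HSP70 and HSP90 partners formed the step with the lowest median, -1.20 over 11 kept genes. Of these 11, 7 were at least 2-fold lower, against 1.6% of all kept genes. The members were chosen by these differences, so the counts and the order of the steps are descriptions. The chaperones themselves stood nearer to 0 than most of their helpers. HSPA5, which encodes BiP, was at 13.19 with miR-130b and at 13.65 with the empty vector, a difference of -0.47. HSP90B1, which encodes GRP94, was at 13.24 with miR-130b and 13.61 with the empty vector, a difference of -0.37. Both are among the brightest probe sets of the arrays, whose highest values were 14.15 and 14.17. Their upstream sequences (bases 250 to 1 before the start, GRCh38.p14, ERSE in capitals) carry 1 match in HSPA5, beginning 66 bases before the start, and 2 in HSP90B1, 194 and 89 bases before it.
HSPA5, chr9:125241344-125241593, minus strand: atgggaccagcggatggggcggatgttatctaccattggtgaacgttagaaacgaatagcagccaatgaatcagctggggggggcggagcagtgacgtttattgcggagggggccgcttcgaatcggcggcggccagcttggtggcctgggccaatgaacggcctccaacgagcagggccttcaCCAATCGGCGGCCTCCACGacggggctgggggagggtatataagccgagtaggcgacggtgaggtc
HSP90B1, chr12:103930160-103930409, plus strand: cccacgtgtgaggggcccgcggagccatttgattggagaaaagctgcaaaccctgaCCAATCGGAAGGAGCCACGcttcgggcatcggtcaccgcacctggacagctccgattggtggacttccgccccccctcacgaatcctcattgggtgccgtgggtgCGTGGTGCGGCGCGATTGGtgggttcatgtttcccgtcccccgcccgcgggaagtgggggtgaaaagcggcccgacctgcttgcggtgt
In HSP90B1 the match nearer to the start lies on the opposite strand, so its capitals read as the reverse complement of ERSE.

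HYOU1, a large HSP70 relative that exchanges nucleotide on BiP, was at 11.43 with miR-130b and at 12.83 with the empty vector, 2.65-fold lower. SIL1, the other exchange factor of BiP, was at 9.76 with miR-130b and 10.60 with the empty vector (-0.84). MANF, a secreted stress-induced protein that binds BiP, was at 10.84 with miR-130b and 11.92 with the empty vector (-1.08). These 3 cofactors lay further below 0 than BiP did. FICD, which attaches AMP to BiP and removes it again, was at 10.13 with miR-130b and 12.17 with the empty vector, 4.11-fold lower. SDF2L1, which forms a complex with the co-chaperone encoded by DNAJB11, was at 8.83 with miR-130b and 10.63 with the empty vector, 3.48-fold lower. On chr22 the start of SDF2L1 lies 11.0 kb before the MIR130B hairpin on the same strand (11002 bases in GRCh38.p14), and this near neighbour was lower on the array where the MIR130B probe set was higher. The upstream sequences of these 3 genes are shown because each holds an element in a different arrangement, 2 copies of ERSE-II in HYOU1, 1 ERSE in FICD and 1 ERSE-II in SDF2L1.
HYOU1, chr11:119057206-119057455, minus strand: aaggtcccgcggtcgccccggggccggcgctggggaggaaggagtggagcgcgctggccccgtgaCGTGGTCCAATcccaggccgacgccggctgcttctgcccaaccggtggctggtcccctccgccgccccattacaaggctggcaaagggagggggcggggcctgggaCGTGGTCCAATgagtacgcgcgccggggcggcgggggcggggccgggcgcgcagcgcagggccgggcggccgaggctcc
FICD, chr12:108515027-108515276, plus strand: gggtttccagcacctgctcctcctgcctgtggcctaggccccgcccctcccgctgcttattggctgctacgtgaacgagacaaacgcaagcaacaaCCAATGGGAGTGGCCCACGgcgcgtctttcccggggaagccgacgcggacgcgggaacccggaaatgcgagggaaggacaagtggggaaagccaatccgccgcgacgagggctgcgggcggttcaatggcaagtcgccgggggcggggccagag
SDF2L1, chr22:21642052-21642301, plus strand: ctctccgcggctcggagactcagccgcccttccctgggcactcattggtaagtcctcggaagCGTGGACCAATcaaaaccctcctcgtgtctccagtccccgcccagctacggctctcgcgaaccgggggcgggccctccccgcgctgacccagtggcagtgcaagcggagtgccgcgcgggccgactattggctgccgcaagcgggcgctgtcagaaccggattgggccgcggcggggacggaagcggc
The matches begin 185 and 79 bases before the start in HYOU1, 154 in FICD and 188 in SDF2L1.

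The J-domain proteins, which stimulate BiP's ATPase and bring it substrates, differed among themselves. DNAJB9 (ERdj4) was at 8.77 with miR-130b and 11.11 with the empty vector, 5.04-fold lower and the 11th largest decrease of all kept genes. DNAJC3 (P58IPK) was at 11.05 with miR-130b and 12.29 with the empty vector, 2.37-fold lower. DNAJB11 (ERdj3) was at 10.86 with miR-130b and 12.06 with the empty vector, 2.30-fold lower. DNAJC10 (ERdj5), which also reduces disulphides, was nearer to 0, at 11.89 with miR-130b and 12.33 with the empty vector (-0.44). None of the 4 held an exact ERSE or ERSE-II in its window. Inexact matches and sequence outside the window were not searched.

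Disulphide formation had a median of -0.64 over 8 kept genes, with 2 genes far below the others. That median was -0.42 under a filter at the 75th percentile, and with CRELD2 and DNAJC10 exchanged between the steps it was -0.47. CRELD2, a stress-induced protein with reported isomerase activity, was at 8.67 with miR-130b and 11.17 with the empty vector, 5.64-fold lower and the largest decrease of the members. The ERO1 oxidases pass electrons from the isomerases to oxygen, and the 2 of them differed. ERO1B was at 8.38 with miR-130b and 10.64 with the empty vector, 4.76-fold lower. ERO1A, which is also induced by hypoxia, was at 12.35 with miR-130b and 12.36 with the empty vector, a difference of -0.0048 that is smaller than the pooled SD. The window of ERO1B held ERSE, 243 bases before the start, while that of ERO1A held neither element. The sequence upstream of CRELD2 is shown with that of ERO1B because its ERSE lies between CRELD2 and the divergent gene ALG12.
CRELD2, chr22:49918384-49918633, plus strand: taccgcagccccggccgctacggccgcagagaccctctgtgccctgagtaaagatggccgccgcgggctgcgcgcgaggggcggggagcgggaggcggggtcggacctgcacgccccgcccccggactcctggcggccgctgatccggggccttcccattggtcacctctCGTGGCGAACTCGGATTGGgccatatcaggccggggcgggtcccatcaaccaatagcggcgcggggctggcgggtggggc
ERO1B, chr1:236281959-236282208, minus strand: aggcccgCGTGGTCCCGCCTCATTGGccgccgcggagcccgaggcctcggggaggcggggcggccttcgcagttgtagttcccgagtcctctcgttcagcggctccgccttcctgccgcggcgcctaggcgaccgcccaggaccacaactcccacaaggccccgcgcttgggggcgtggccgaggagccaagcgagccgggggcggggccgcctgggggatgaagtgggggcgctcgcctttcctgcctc
In both, the element is on the strand opposite to the gene.

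The protein disulphide isomerases were all lower by less than 2-fold. PDIA5 was at 10.35 with miR-130b and 11.14 with the empty vector (-0.79). PDIA4 was at 12.55 with miR-130b and 13.34 with the empty vector (-0.79). These 2 had nearly the same difference at signals more than 2 log2 units apart. TXNDC11, a membrane-bound thioredoxin-like protein, stood at 10.09 with miR-130b and 10.59 with the empty vector (-0.50). PDIA6 stood at 12.97 with miR-130b and 13.31 with the empty vector (-0.34). P4HB, the archetypal isomerase, averaged 13.23 with miR-130b and 13.48 with the empty vector (-0.25). Its 2 probe sets gave -0.23 and -0.27, so they agreed within the pooled SD. PDIA3, the partner isomerase of the lectins, shares its 2 probe sets with a pseudogene, PDIA3P1, and they gave -0.53 and -0.57. TXNDC5 shares its probe set with BLOC1S5 and readthrough genes, and this probe set stood at 10.69 with miR-130b and 10.90 with the empty vector (-0.21). Those shared values cannot be assigned to the member alone, and they too were below 0.

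The prolyl isomerases, which turn proline bonds during folding, had a median of -0.30 over 3 genes, or -0.55 with the filter at the 75th percentile. FKBP14 was at 9.95 with miR-130b and 10.80 with the empty vector (-0.85). FKBP2 was at 8.87 with miR-130b and 9.17 with the empty vector (-0.30). PPIB, cyclophilin B, was at 13.08 with miR-130b and 13.32 with the empty vector (-0.24). FKBP2 and PPIB lay within 2 pooled SDs of 0.

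The lectin cycle, in which calnexin and calreticulin retain glycoproteins for as long as UGGT1 marks them as unfolded, had a median of -0.29 over 3 genes. CALR, calreticulin, was at 12.47 with miR-130b and 13.06 with the empty vector (-0.59). CANX, calnexin, was at 13.56 with miR-130b and 13.70 with the empty vector (-0.14), which is within 1 pooled SD of 0. UGGT1 was at 12.78 with miR-130b and 13.07 with the empty vector (-0.29). CALR and CANX held ERSE, as CRELD2 and FICD did, and lay nearer to 0 than the members' median.

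ERAD genes had a median of -0.68 over 12 kept genes, of which 3 were at least 2-fold lower, against 1.6% of all kept genes. These 3 were HERPUD1, SYVN1 and DERL2 of the membrane ligase complex. HERPUD1, a stress-induced membrane protein that organizes that complex, was at 11.22 with miR-130b and 13.25 with the empty vector, 4.08-fold lower. SYVN1, the ubiquitin ligase HRD1, was at 10.86 with miR-130b and 12.18 with the empty vector, 2.50-fold lower. Its partner SEL1L was at 12.40 with miR-130b and 13.18 with the empty vector (-0.78). HERPUD1 holds ERSE-II 117 bases before its start and is printed as the member of this step with an element.
HERPUD1, chr16:56931892-56932141, plus strand: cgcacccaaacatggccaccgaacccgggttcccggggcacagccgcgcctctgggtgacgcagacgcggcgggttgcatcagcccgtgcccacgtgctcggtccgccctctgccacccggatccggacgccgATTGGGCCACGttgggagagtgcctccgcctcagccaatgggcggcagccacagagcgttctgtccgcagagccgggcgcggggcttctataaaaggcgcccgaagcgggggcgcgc
SEL1L and SYVN1 held neither element in their windows.

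The derlins, which form part of the exit channel, differed among themselves. DERL2 was at 10.48 with miR-130b and 11.55 with the empty vector, 2.09-fold lower. DERL1 was at 12.15 with miR-130b and 12.71 with the empty vector (-0.56). DERL3, below the filter, was at 8.03 with miR-130b and 8.40 with the empty vector (-0.37). DERL2 thus stood furthest below 0 of the 3. UBE2J1, a ubiquitin-conjugating enzyme that acts with the ligase, was at 10.50 with miR-130b and 11.32 with the empty vector (-0.82). FAF2, which recruits the ATPase VCP to the membrane, averaged 13.08 with miR-130b and 13.25 with the empty vector (-0.17), within 2 pooled SDs of 0. Its 2 probe sets gave -0.19 and -0.16, and a further one shared with WDFY1 gave -0.024.

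The lectins and mannosidase-like proteins that pick out misfolded glycoproteins had differences from -0.74 to -0.23. EDEM1 was at 11.64 with miR-130b and 12.38 with the empty vector (-0.74). EDEM2 was at 11.44 with miR-130b and 11.95 with the empty vector (-0.51). EDEM3 was at 11.67 with miR-130b and 11.90 with the empty vector (-0.23). Of the 3, EDEM1 stood furthest below 0 and EDEM3 nearest to it. ERLEC1, a lectin, was at 11.55 with miR-130b and 12.16 with the empty vector (-0.61). OS9, the other lectin, was at 12.05 with miR-130b and 12.47 with the empty vector (-0.41). Of these 5 genes, EDEM3 alone lay within 2 pooled SDs of 0.

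The genes of the sensors IRE1 and ATF6 and of the factor XBP1 were lower, and among these members that of IRE1 stood furthest below 0. ERN1, which encodes IRE1, was at 9.998 with miR-130b and 11.00 with the empty vector, 2.01-fold lower. It was just past the 2-fold threshold, and just short of it under quantile normalization (-0.97) and cyclic loess (-0.99). XBP1, its splicing substrate, was at 10.84 with miR-130b and 11.52 with the empty vector (-0.68). ATF6 was at 11.44 with miR-130b and 12.11 with the empty vector (-0.67). EIF2AK3, which encodes the sensor PERK and is not a member, was at 10.64 with miR-130b and 11.67 with the empty vector (-1.02). A probe set over the whole transcript does not tell spliced from unspliced XBP1 mRNA, so the activity of IRE1 was not measured.

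**Figure D2:**
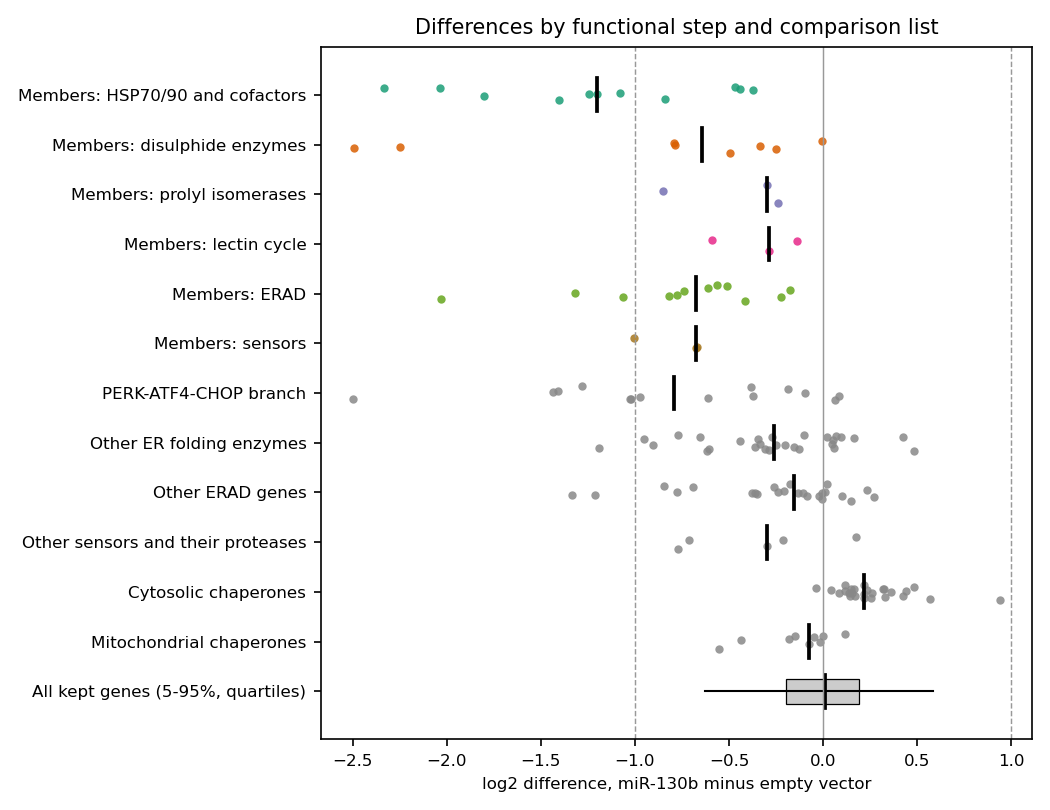
Difference of each kept gene (x axis, log2, miR-130b minus empty vector) in the 6 steps of the members and in 6 comparison lists, with the median as a black bar and the quartiles and 5th to 95th percentiles of all kept genes at the bottom. The HSP70 and HSP90 step has the lowest median, -1.20, single genes reach -2.50 in the disulphide step and in the PERK branch, and cytosolic chaperones lie to the right of 0 with a median of 0.22.

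Genes of the pathway that are not members are given by list, and since the members were chosen by their differences, no contrast is drawn between them and these lists. Of all kept genes, 48.4% were lower and 1.6% were at least 2-fold lower. Of 28 kept ER folding enzymes outside the members, 19 were lower and 9 higher, with a median of -0.26, and 1 was at least 2-fold lower. That 1 was CLGN, a calnexin relative, at 9.29 with miR-130b and 10.48 with the empty vector (-1.19). ERP44, which retains ERO1 in the early secretory pathway, was at -0.95 and FKBP11 at -0.91, while FKBP9 was at 0.48, TMX4 at 0.42 and TOR1A at 0.17. Of 24 kept ERAD genes outside the members, 18 were lower and 6 higher, with a median of -0.15, and 2 of the 18, UFD1 and TMUB1, turned to above 0 under quantile normalization and cyclic loess. The selenoproteins SELENOK, at 9.21 with miR-130b and 10.54 with the empty vector (-1.34), and SELENOS, at 9.58 with miR-130b and 10.79 with the empty vector (-1.21), were the 2 that were at least 2-fold lower. The intramembrane protease RHBDD1 followed at -0.85, while FBXO2 was at 0.27, UBE2K at 0.23 and the VCP cofactor NPLOC4 at 0.15. Among 5 kept sensors and their proteases, 4 were lower, with WFS1 at -0.77, CREB3 at -0.71 and MBTPS2 at -0.30, and MBTPS1, the site-1 protease that cuts ATF6, was at 0.17.

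The PERK branch, which signals through the factors ATF4 and CHOP, had a median of -0.79 over 14 kept genes, 12 of them lower and 6 at least 2-fold lower (5 under quantile normalization), against 1.6% of all kept genes at least 2-fold lower. DDIT3, which encodes CHOP, was at 9.47 with miR-130b and 11.96 with the empty vector (-2.50), TRIB3 was at -1.43 and SESN2 at -1.41, and EIF2S1 and PPP1R15B were at 0.082 and 0.062. Chaperones of other compartments are described next, again without a contrast to the members. Of all kept genes 48.4% were lower, while of 26 kept cytosolic chaperones 25 were higher and 1, CDC37, was lower (-0.036). The median of these chaperones was 0.22. The largest of these differences was that of DNAJB4 at 0.94, followed by DNAJA1 at 0.57 and BAG3 at 0.49. Mitochondrial chaperones and proteases had a median of -0.077 over 9 kept genes, 7 lower, 1 higher and CLPB at 0, with LONP1 at -0.55, DNAJA3 at -0.44 and GRPEL2 at -0.18 the lowest and HSPD1 at 0.12 the highest, and TRAP1 (-0.018) turned to 0.0006 under quantile normalization. The lists were compiled with earlier results of these arrays known, so their medians are descriptions too.

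Among the members, chosen by these same differences, those with a lower mean of both arrays stood further below 0 in the medians by signal. A larger decrease also lowers that mean. The 5 kept members with a mean value under 10 had a median difference of -2.25, and 4 of them were at least 2-fold lower. Those 4, SDF2L1, DNAJB9, ERO1B and CRELD2, were at 10.63, 11.11, 10.64 and 11.17 with the empty vector. Their decrease itself thus brought their mean under 10, so this bin is partly made by the difference. Between 10 and 12 the median was -0.84 over 17 members, between 12 and 13 it was -0.59 over 11, and at 13 or more it was -0.25 over 7, of which none was at least 2-fold lower. Across the 40 kept members Pearson's r between mean value and difference was 0.569 and Spearman's rho 0.637. These are descriptions of genes chosen by the difference itself. The points share 2 arrays, and the mean value contains the same 2 values as the difference. Across the other 9169 kept genes the rho was -0.004, but the spread narrowed with signal in them as well. Their 5th percentile of the difference lay at -0.70 under 10, at -0.61 between 10 and 12, at -0.44 between 12 and 13 and at -0.31 at 13 or more, where 0 of 163 genes were at least 2-fold lower. Of the other genes under 10, 2% were at least 2-fold lower. HERPUD1 and HYOU1 were exceptions, with mean values of 12.23 and 12.13 and differences of -2.03 and -1.40. Whether the brightest probe sets were limited by saturation was not tested, and signal differs between probe sets for reasons other than the amount of mRNA.

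**Figure D3:**
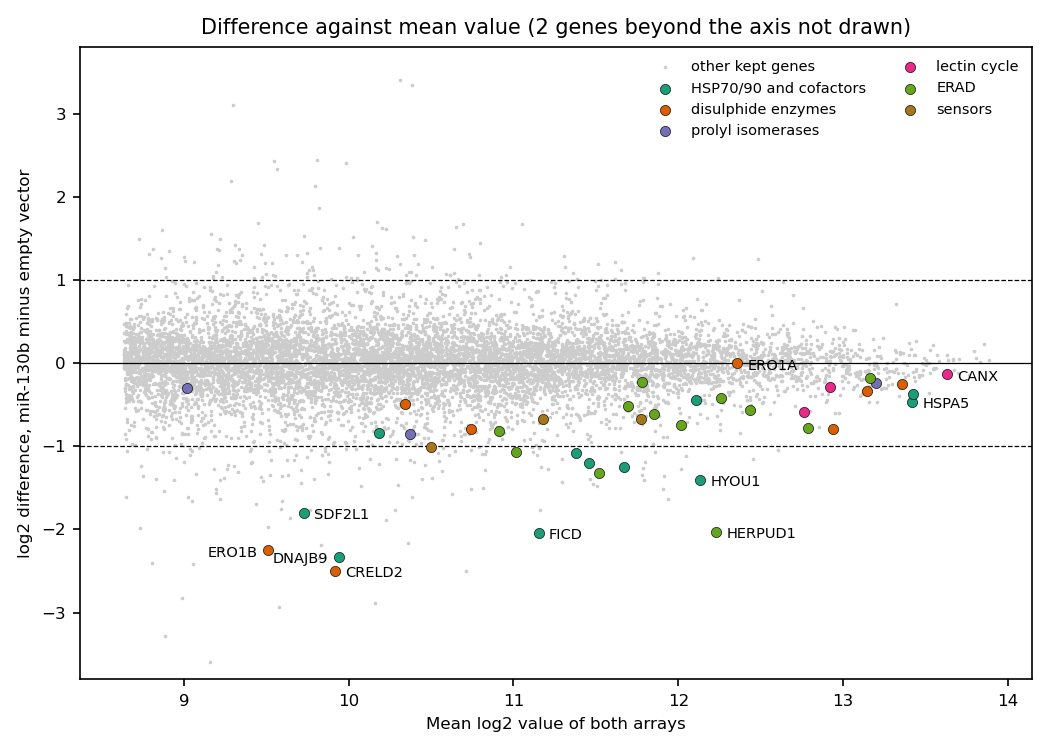
Difference (y axis, log2, miR-130b minus empty vector) against the mean log2 value of both arrays (x axis) for the 40 kept members, coloured by step, and the other kept genes in grey, with 2-fold as dashed lines. Members run from -2.50 for CRELD2, with a mean value under 10, to -0.0048 for ERO1A. ERO1A turns to above 0 under quantile normalization and cyclic loess, and the bright CANX lies at -0.14.

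Members with an element in their promoter window were not uniformly lower than those without. All members were chosen by these same differences, so low values were built into both groups. What the element contributes was not tested. The 12 members with ERSE or ERSE-II had a median of -1.04, with 6 at least 2-fold lower. The 26 kept members with a window and neither element had a median of -0.705, with 7 at least 2-fold lower. Of all 7617 kept genes with a window, 1.52% were at least 2-fold lower. The ranges overlapped almost entirely, from -2.50 to -0.14 with an element and from -2.33 to -0.0048 without. The 3 members with ERSE-II, HERPUD1, SDF2L1 and HYOU1, lay between -2.03 and -1.40. Those with ERSE split, with CRELD2, ERO1B and FICD at or below -2.04 and XBP1, CALR, HSPA5, HSP90B1, PDIA6 and CANX between -0.68 and -0.14. The UPR element TGACGTGG, whose reverse complement holds CCACG, was found in windows of 5 members, DNAJC10, HYOU1, TXNDC5, TXNDC11 and UBE2J1, and in 0.927% of all genes with a window. In HYOU1 it overlaps the upstream ERSE-II match. The 4 of these that were kept had a median of -0.66.

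**Figure D4:**
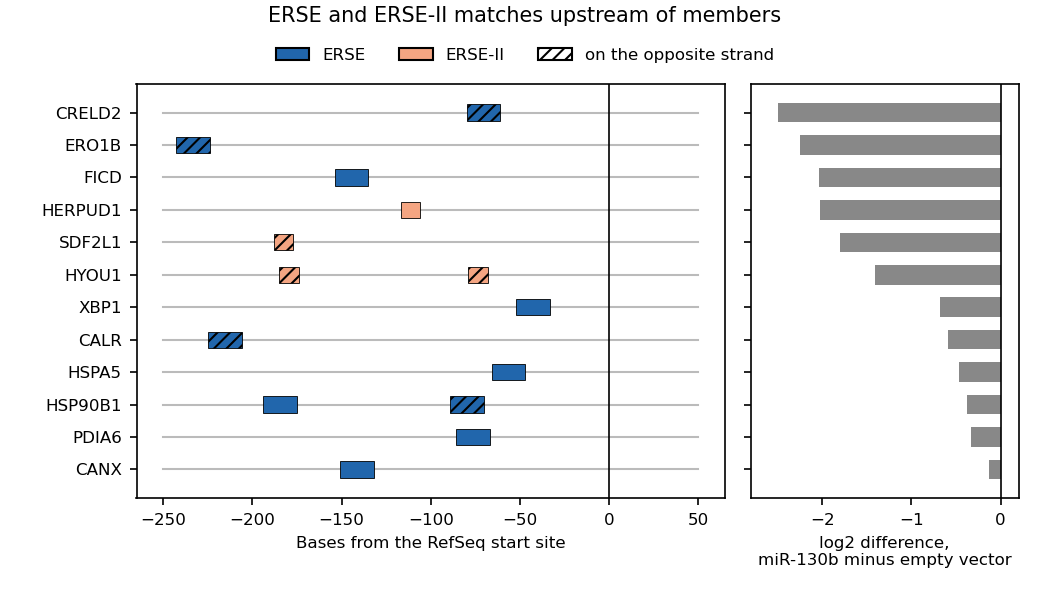
Left, position of ERSE and ERSE-II matches (x axis, bases from the RefSeq start, hatched where on the opposite strand) in 12 members, with 1 start shown for a gene with several. Right, the difference of each gene (log2, miR-130b minus empty vector), which runs from -2.50 for CRELD2 to -0.14 for CANX with no visible order in motif position.

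Genes outside the members that hold the same elements were read from the same 2 arrays. All 6 kept non-members with ERSE were lower, with a median of -0.53 and a range from -1.02 to -0.027, whereas 48.2% of the 7617 kept genes with a window were lower. SERP1, which stabilizes ER membrane proteins, was at 11.70 with miR-130b and 12.40 with the empty vector (-0.71). EIF2A, divergent from SERP1 and sharing the same match, was at 10.47 with miR-130b and 11.16 with the empty vector (-0.68). ALG12, a mannosyltransferase of N-glycan assembly, was at 10.06 with miR-130b and 11.08 with the empty vector (-1.02), and its match is the one it shares with CRELD2. TMEM120A was at -0.38, TRIM5 at -0.33 and SYNPO at -0.027, so the 6 genes hold 5 separate matches and SYNPO lay close to 0. Another 4 measured genes with ERSE were below the filter, FRG2C at 0.35, GLRA2 at 0.16, NLRP4 at 0.082 and ZNF17 at -0.059. The 9 kept non-members with ERSE-II went both ways, 5 lower and 4 higher, with a median of -0.11 and a range from -0.71 (NAV2) to 0.54 (GYS1). NUCB1, a calcium-binding protein of the secretory pathway, was among the lower ones at -0.50. Of 95 kept non-members with the UPR element, 62 (65.3%) were lower, with a median of -0.099. These non-members were set beside the other genes after their values were seen, without a test.

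**Figure D5:**
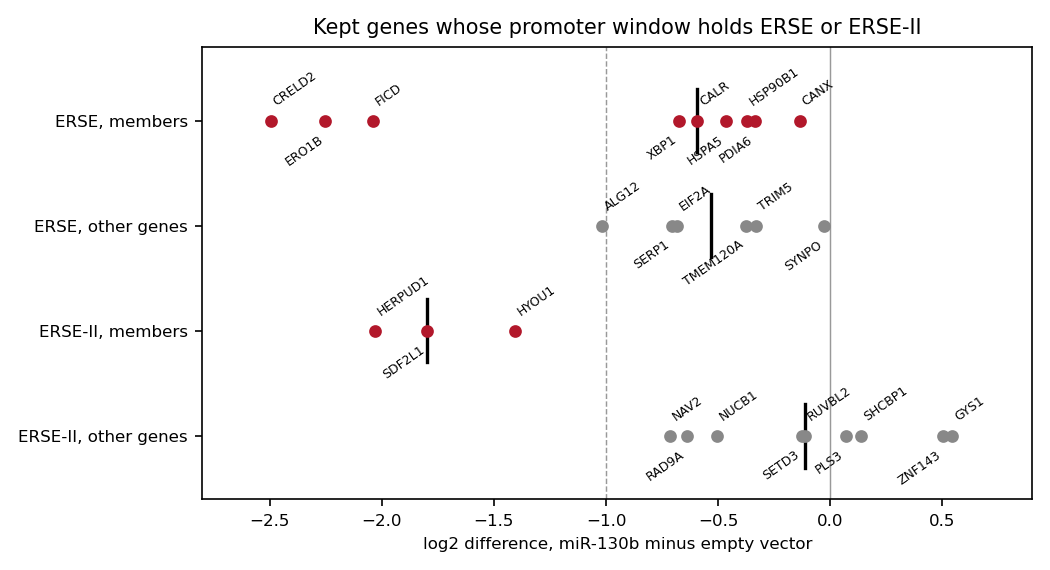
Difference (x axis, log2, miR-130b minus empty vector) of each kept gene whose promoter window holds ERSE or ERSE-II, for members and other genes, with medians as black bars. The 6 other genes with ERSE lie between -1.02 and -0.027, and the 9 with ERSE-II spread from -0.71 to 0.54.

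Neighbouring genes that start head to head with a member were read out separately. Within 1000 bases of a member's start, 4 members had a measured divergent neighbour. All 4 neighbours were lower, as were 48.4% of all kept genes. The neighbours' median was -0.56, against -1.77 for the 4 members themselves. THAP5, whose start lies 106 bases from that of DNAJB9, was at 8.49 with miR-130b and 9.17 with the empty vector (-0.67). MIS12, a kinetochore gene 196 bases from DERL2, was at 9.69 with miR-130b and 10.15 with the empty vector (-0.45). TBCCD1, 402 bases from DNAJB11, was at 8.95 with miR-130b and 9.33 with the empty vector (-0.38), and ALG12, 196 bases from CRELD2, is given above. In each pair the member stood further below 0 than its neighbour. The members were chosen by their differences, so that order can follow from the choice. Whether the neighbours differ from genes elsewhere was not tested.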

How the data were processed

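The series value table holds 1 log2 value per probe set and array, 33297 probe sets on 2 arrays. Per the labels' protocols, biotin-labelled cDNA was hybridised to a whole-transcript Affymetrix array. The log2 unit of the deposited values was read from their range (1.95 to 14.2). Software, background correction and normalization of the authors were not given in the sources used here. Medians were nearly equal (7.77 in both columns), so differences are relative to the other probe sets. Probe sets with 1 symbol in the platform annotation (19460) were named, updated through Entrez identifiers to RefSeq (GRCh38.p14), and averaged per gene. Genes with a mean at or above the median of the named genes (8.64) were kept. A gene could therefore be kept through the array on which it was high. Where members are at least 2-fold lower or higher, the threshold is 1 on the log2 scale.

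Members, steps, lists and motifs were chosen with earlier results of these data known. All 43 members were named, plus MIR130B and AGO2 and the 3 largest differences each way in every comparison list, or as many as a list held. The non-members with a motif, the divergent neighbours, EIF2AK3 and CHAC1 were named after their values were seen. Promoter windows, from RefSeq, were found for 39 members, and motifs were searched on both strands. The planned protein features were not analysed because no protein sequences were used. Having 2 arrays limits the precision. The counting of folds was tested on artificial data. Alternatives were 2 other filters, centring, quantile normalization, cyclic loess (limma 3.58.1 in R 4.3.3), the brightest probe set, shared probe sets, 1.5-fold, other step assignments and the mean. Python 3.11.15, pandas 2.3.3 and numpy 2.4.6 were used.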

Additional observations from a re-analysis of the deposited data

How the results depend on the processing

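Over 10 alternatives, 284 values were recomputed, of which 280 stayed within the pooled SD of 0.163, or for counts within 1.5 times, of the value given above, and 0 of which reversed a member at least 2-fold lower. Many of these values could hardly move. Most members have 1 probe set, so the brightest and shared probe sets left them as they were, and centring shifts all genes alike. The median of the kept members lay between -0.87 and -0.64. With the filter at the 75th percentile, which left 34 members, the median of the disulphide enzymes was -0.42 and that of the prolyl isomerases -0.55. With CRELD2 counted among the HSP70 cofactors and DNAJC10 among the disulphide enzymes, the median of the disulphide enzymes was -0.47. At 1.5-fold, 24 members were lower. Among 205 values of single members 2 had another sign, both of ERO1A (0.0047 under quantile normalization and 0.016 under cyclic loess), and the largest shift was 0.05. The comparison lists were rescaled too, a step chosen after seeing the data, and no list median changed sign. No paired analysis was possible because each group has 1 array, and for the same reason no array could be left out. Probe sets near background, which the files do not mark, and the 2 arrays limit what can be said of dim genes.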
